A study of Caenorhabditis elegans with 10 samples.

Results

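The genes described here are 8 cuticle collagen genes of the last larval stage (L4) and the adult: bli-1, bli-2, col-38, col-49, col-63, col-7, col-62 and col-19. They were chosen by name. The choice set bli-1, bli-2 and col-38 apart as early genes and col-19 and col-7 as late genes, and put the other 3 in neither group. They are 8 of the 46770 genes obtained when the rows of the count tables were summed per gene. All 8 were among the 12335 genes with enough counts to be tested. The RNA came from whole Caenorhabditis elegans, sequenced as mRNA libraries, of strain F01D4.5(baf20), which is named after the gene F01D4.5, and of strain N2, the standard laboratory wild type. The labels do not say what the baf20 change is, and they name no other allele or agent in either strain. Worms of both strains were grown from L1 arrest for 48 hours at 20 °C on the bacterial food OP50, and each sample pooled 1000 to 2000 worms. There were 5 libraries of F01D4.5(baf20) and 5 of N2, described by the submitters as biological replicates. Nothing further says that they came from separate cultures, so p-values measure the spread between these samples.

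The cuticle is an extracellular matrix that the epidermis secretes anew at each moult, and most of its protein is collagen. Cuticle collagen genes are not transcribed steadily. They come on in successive waves within a moulting cycle, and many are used at particular stages. The adult cuticle is laid down by L4 animals. It differs from larval cuticles in having columns, called struts, which join its inner and outer layers across a fluid-filled space. BLI-1 and BLI-2 are needed for the struts, and worms that lack either one develop blisters. col-19 is transcribed in adults and not in larvae, and its reporter is a widely used mark of the adult epidermis.

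The libraries held between 9059910 and 11056979 counts, so that 3 counts corresponded to 0.269 to 0.339 CPM. CPM here means counts scaled to the library size after TMM scaling, without correction for gene length. F01D4.5 averaged 3.23 ± 0.738 CPM in F01D4.5(baf20) worms and 10.8 ± 2.93 CPM in N2 (SD, n = 5 each), with a log2 fold change of −1.74 (SE 0.241, Benjamini-Hochberg adjusted p = 0.0264 in the quasi-likelihood test of edgeR). Its range was 2.15 to 4.03 CPM in F01D4.5(baf20) and 6.44 to 14.3 CPM in N2, without overlap. The gene has 2 transcript rows in the tables, and whether reads shared by isoforms were left out of genes with several rows was not tested. F01D4.5 missed the threshold of 0.05 when any single library numbered 1 to 4 was left out (adjusted p 0.0853 to 0.13, edgeR), while its log2 fold change lay between −1.877 and −1.614 in all alternatives run. The 2 libraries numbered 5, 1 of each strain, stood above the other 8 in bli-1, bli-2, col-38, col-49 and col-63. In log2 CPM N2 replicate 1 also lay apart from N2 replicates 2 to 4, on the low side. There col-38 stood at 4.56 in N2 replicate 1, 7.11 to 7.4 in N2 replicates 2 to 4 and 9.91 in N2 replicate 5. Results for the 8 genes that rest on the libraries numbered 5 are given with and without those libraries. In whole worms, fewer cells of a type and less RNA per cell cannot be told apart. At least 1 marker each of epidermis, body wall muscle, pharynx, intestine, neurons, germline and sperm was above 1 CPM, while unc-15 of muscle, myo-1 of pharynx and pgl-1 of germline were at 0 throughout. Those genes have 8, 2 and 3 transcript rows, so their 0 cannot be read as no expression. Of 4 seam cell markers only grd-10 exceeded 1 CPM. Of the others, elt-1 and ceh-16 have 6 and 2 transcript rows and nhr-73 has 1.

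bli-1 (chromosome II, 10708960 to 10712156, plus strand, WBcel235, 5 exons) encodes a strut collagen and had the lowest level of the 8 genes per kilobase. Its levels in F01D4.5(baf20) replicates 1 to 5 were 4.5, 7.01, 6.15, 12 and 51.5 CPM, against 7.08, 28.2, 29.6, 29.8 and 118.7 CPM in N2 replicates 1 to 5. Replicate 5 was the highest library of each strain, and 4 of the 5 F01D4.5(baf20) libraries lay below N2 replicates 2 to 5. N2 replicate 1 lay among the F01D4.5(baf20) libraries, so the strains overlapped. The fitted log2 fold change was −1.40 (SE 0.842, 95% interval −3.27 to 0.48, adjusted p = 0.899, edgeR). This difference did not exceed the spread between replicates.

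bli-2 (chromosome II, 5651394 to 5652434, minus strand, 2 exons) encodes the other strut collagen. It stood at 5.43, 9.92, 4.33, 16.6 and 146 CPM in F01D4.5(baf20) replicates 1 to 5, against 7.54, 37.7, 56.8, 52.5 and 329 CPM in N2 replicates 1 to 5. The order of the libraries was close to that of bli-1, with both libraries numbered 5 far above the rest and N2 replicate 1 among the F01D4.5(baf20) libraries. Replicate 5 exceeded the median of replicates 1 to 4 by 19-fold in F01D4.5(baf20) and by 7.29-fold in N2. For bli-1 the same ratios were 7.83 and 4.11. The log2 fold change of bli-2 was −1.41 (SE 1.17, 95% interval −4.02 to 1.2, adjusted p = 0.926, edgeR), within the replicate spread.

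col-38 (chromosome II, 8568035 to 8569088, minus strand) is the remaining gene of the early group. Its F01D4.5(baf20) levels were 25.9, 36.5, 17.1, 50.6 and 545 CPM, against 23.3, 138, 168, 166 and 962 CPM in N2. The 2 replicate 5 libraries were again the highest of all 10, at 17.5 times the median of the others in F01D4.5(baf20) and 6.34 times in N2. At replicate number 1 the F01D4.5(baf20) value was the higher of the pair. The log2 fold change was −1.11 (SE 1.15, 95% interval −3.66 to 1.44, adjusted p = 0.937, edgeR).

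col-49 and col-63, both on chromosome I, were assigned to neither group, and both followed col-38 from library to library. col-49 (3137185 to 3138447, plus strand) had 20.7, 18.9, 8.67, 28.2 and 348 CPM in F01D4.5(baf20), against 10.5, 78.4, 94.4, 109 and 557 CPM in N2. col-63 (8243694 to 8244963, minus strand) had 21.8, 30.7, 12.3, 45.2 and 523 CPM in F01D4.5(baf20), against 17.5, 122, 150.1, 167 and 890.4 CPM in N2. Each gene was lowest in F01D4.5(baf20) replicate 3 and N2 replicate 1, and highest in the libraries numbered 5, and the strains overlapped in both. The log2 fold changes were −1.0 for col-49 (SE 1.18, adjusted p = 0.939) and −1.09 for col-63 (SE 1.2, adjusted p = 0.939, edgeR). In N2 replicate 5, which had 10248255 counts, col-63 alone held 8575. In N2 replicate 1 it held 193.

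**Figure D1:**
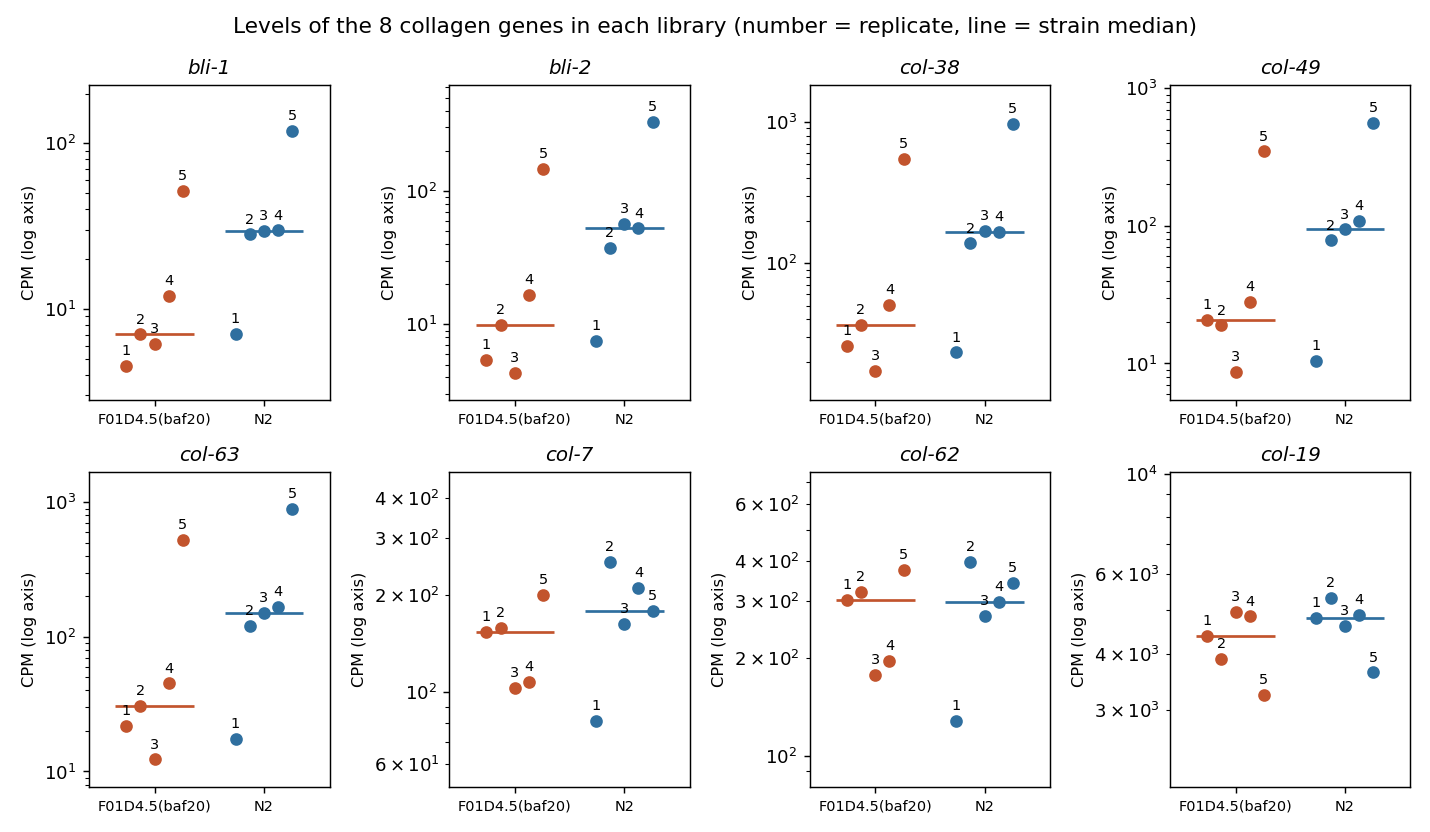
Level of each gene in CPM (log axis, scaled per panel) in each library, F01D4.5(baf20) in orange on the left and N2 in blue on the right, with the replicate number above each point and the strain median as a line. In the upper row and in col-63 the libraries numbered 5 are the highest of their strain, whereas col-19 ranges only from 3248 to 5314 CPM.

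Among the late genes, col-19 (chromosome X, 421707 to 422691, plus strand) had the highest level of the 8 genes per kilobase. It had 4377, 3891, 4941, 4832 and 3248 CPM in F01D4.5(baf20) replicates 1 to 5, against 4791, 5314, 4599, 4866 and 3635 CPM in N2 replicates 1 to 5. The libraries numbered 5 were the lowest of each strain for this gene, where for the early genes they were the highest. By mean CPM col-19 was the 12th gene of the whole table, and it took 0.295% to 0.488% of all counts in F01D4.5(baf20) libraries and 0.342% to 0.537% in N2 libraries. Its share of the counts of the 8 genes together was 59.7% in F01D4.5(baf20) replicate 5 and 51.8% in N2 replicate 5. In the other libraries that share was 87.0% to 93.8% in F01D4.5(baf20) and 82.5% to 94.6% in N2. The log2 fold change of col-19 was −0.12 (SE 0.139, 95% interval −0.43 to 0.18, adjusted p = 0.939, edgeR).

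col-7 (chromosome I, 7401132 to 7402761, plus strand), the second late gene, had 154, 158, 103, 107 and 201 CPM in F01D4.5(baf20), against 81.4, 254, 162, 210.2 and 179 CPM in N2. The lowest of the 10 libraries was N2 replicate 1 and the highest N2 replicate 2, so the F01D4.5(baf20) values all lay inside the N2 range. The log2 fold change was −0.30 (SE 0.284, 95% interval −0.92 to 0.33, adjusted p = 0.929, edgeR). col-62 (chromosome I, 7403291 to 7404374, minus strand), assigned to neither group, had 303, 320.1, 177, 196 and 375 CPM in F01D4.5(baf20), against 128, 397, 271, 299 and 342 CPM in N2. It too was lowest in N2 replicate 1 and highest in N2 replicate 2. Its log2 fold change was −0.07 (SE 0.298, 95% interval −0.73 to 0.59, adjusted p = 0.979, edgeR).

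Across libraries the genes thus differed in how far they ranged. The highest library exceeded the lowest by 26.4-fold for bli-1, 75.9-fold for bli-2, 56.1-fold for col-38, 64.2-fold for col-49 and 72.4-fold for col-63. For col-7 and col-62 the same ratio was 3.12 and 3.10, and for col-19 it was 1.64. On the log2 scale the median tested gene spanned 1.00 from its lowest to its highest library. The spans of the 5 wide-ranging genes, 4.66 to 6.18, lay at percentiles 98.8 to 99.8 of all tested genes, those of col-7 and col-62 at 78.7 and 78.5, and that of col-19 at 27.5. Much of the range came from the libraries numbered 5, but not all. Over the 8 libraries numbered 1 to 4 the ratio of highest to lowest was still 6.62 for bli-1, 13.1 for bli-2, 9.82 for col-38, 12.5 for col-49 and 13.6 for col-63.

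Within the wide-ranging group, pairs of genes kept nearly fixed proportions. The ratio of col-38 to col-63 lay between 1.04 and 1.39 in F01D4.5(baf20) libraries and between 0.989 and 1.33 in N2 libraries. That of col-49 to col-63 lay between 0.618 and 0.948 in F01D4.5(baf20) and between 0.601 and 0.649 in N2. bli-2 to bli-1 was less steady, at 0.705 to 2.83 in F01D4.5(baf20) and 1.06 to 2.77 in N2. col-62 and col-7 formed another such pair, at 1.72 to 2.03 in F01D4.5(baf20) and 1.42 to 1.91 in N2. By contrast col-19 exceeded col-38 by 5.95-fold to 288-fold in F01D4.5(baf20) and by 3.78-fold to 205-fold in N2. These ratios are of CPM, and compare libraries and not the amounts of different transcripts.

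The likeness of library profiles was measured as the root mean square difference of log2 CPM after each gene was centred on its own mean over the 10 libraries. By this measure col-38 and col-63 differed by 0.14, col-49 and col-63 by 0.18, col-38 and col-49 by 0.21, bli-2 and col-38 by 0.21 and bli-2 and col-63 by 0.22. bli-1 differed from the other 4 of this group by 0.54 to 0.68, and these took places 101 to 199 among the tested genes by nearness to bli-1. col-7 and col-62 differed by 0.16, and col-62 was the nearest of all tested genes to col-7. col-19 differed from col-7 by 0.58, and was only in place 6110 among the tested genes by nearness to col-7. The pair of late genes thus shared a smaller range but did not rank as near neighbours. bli-1 and bli-2 also differed by 0.58, but there bli-2 was in place 128 by nearness to bli-1. The measure grows with range, so 0.58 marks less likeness between genes of small range. All values share the same 10 libraries and are given as a description.

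**Figure D2:**
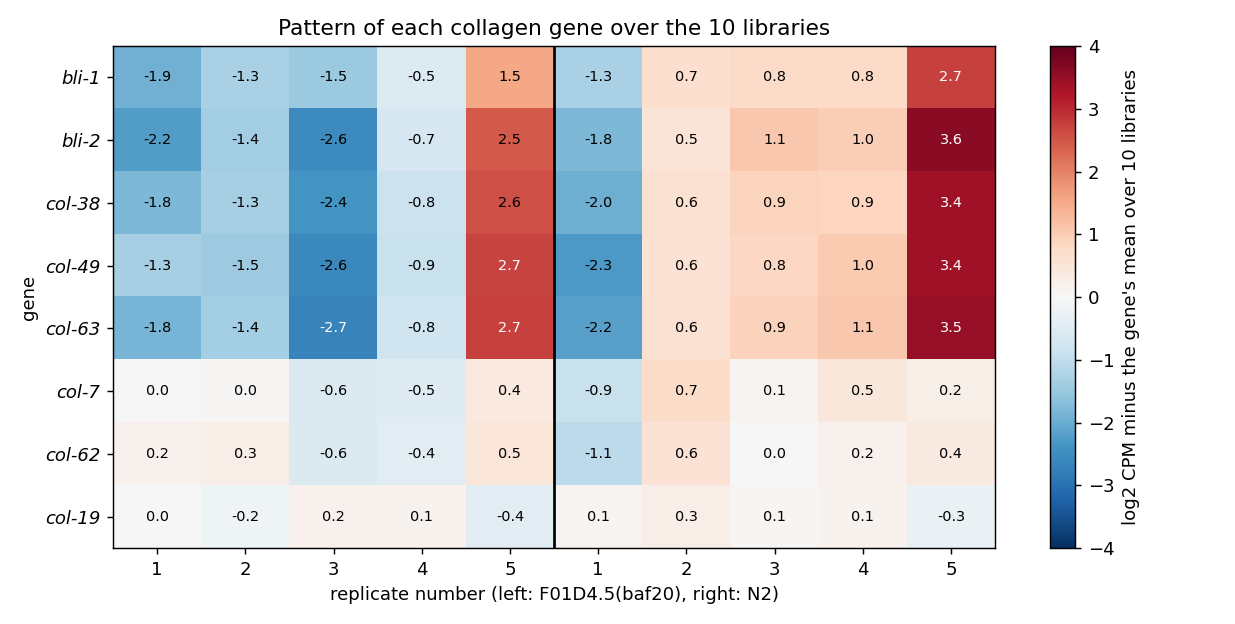
Log2 CPM of each gene in each library minus the gene's mean over the 10 libraries (colour and printed value), with F01D4.5(baf20) replicates 1 to 5 left of the black line and N2 replicates 1 to 5 right of it. The upper 5 genes share 1 pattern, with the highest values in both libraries numbered 5 and low values in N2 replicate 1 and F01D4.5(baf20) replicates 1 to 3, while col-7 and col-62 share another and col-19 is nearly flat.

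The comparison of strains asks which genes differ in F01D4.5(baf20) worms relative to N2. All 8 collagen genes had negative log2 fold changes, and none passed the test. Of all tested genes 0.0649% passed in either direction and 0.0324% passed as lower in F01D4.5(baf20). The median log2 fold change of the 8 genes was −1.05, beside 0.018 over all tested genes, of which 46.8% were negative. None of the 8 had an unadjusted p under 0.05, by edgeR or by DESeq2. None had CPM values without overlap between the strains, as 1.43% of tested genes had. The 8 genes are not independent replicates of a strain difference, since 5 of them share 1 profile, bli-1 the least closely.

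The 2 libraries numbered 5 set the size of these fold changes. Without N2 replicate 5 the log2 fold changes were −0.55 for bli-1, −0.09 for bli-2, 0.13 for col-38, 0.22 for col-49 and 0.15 for col-63, and their median over the 8 genes was −0.04. Without F01D4.5(baf20) replicate 5 they were −2.52, −3.41, −3.16, −3.15 and −3.29 in the same order, with a median over the 8 genes of −2.83. With both libraries numbered 5 left out they were −1.67 (SE 0.483), −2.08 (SE 0.684), −1.93 (SE 0.634), −1.93 (SE 0.695) and −2.05 (SE 0.707). None passed the test in any of these fits (adjusted p of 0.226 to 0.227 without F01D4.5(baf20) replicate 5 and of 0.202 to 0.262 with both left out, edgeR), beside 0.103% and 0.146% of tested genes that did. These 5 genes had an unadjusted p under 0.05 in both fits, as 16.4% and 15.4% of tested genes had.

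The late genes col-19 and col-7, and col-62 of neither group, moved less between these fits. The log2 fold change of col-19 was −0.20 without N2 replicate 5, −0.04 without F01D4.5(baf20) replicate 5 and −0.12 with both left out. For col-7 it was −0.29, −0.44 and −0.44, and for col-62 0.00, −0.21 and −0.14. With 10 libraries the 95% interval of col-19 allowed a log2 fold change of −0.43 to 0.18, whereas that of bli-2 allowed −4.02 to 1.2.

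**Figure D3:**
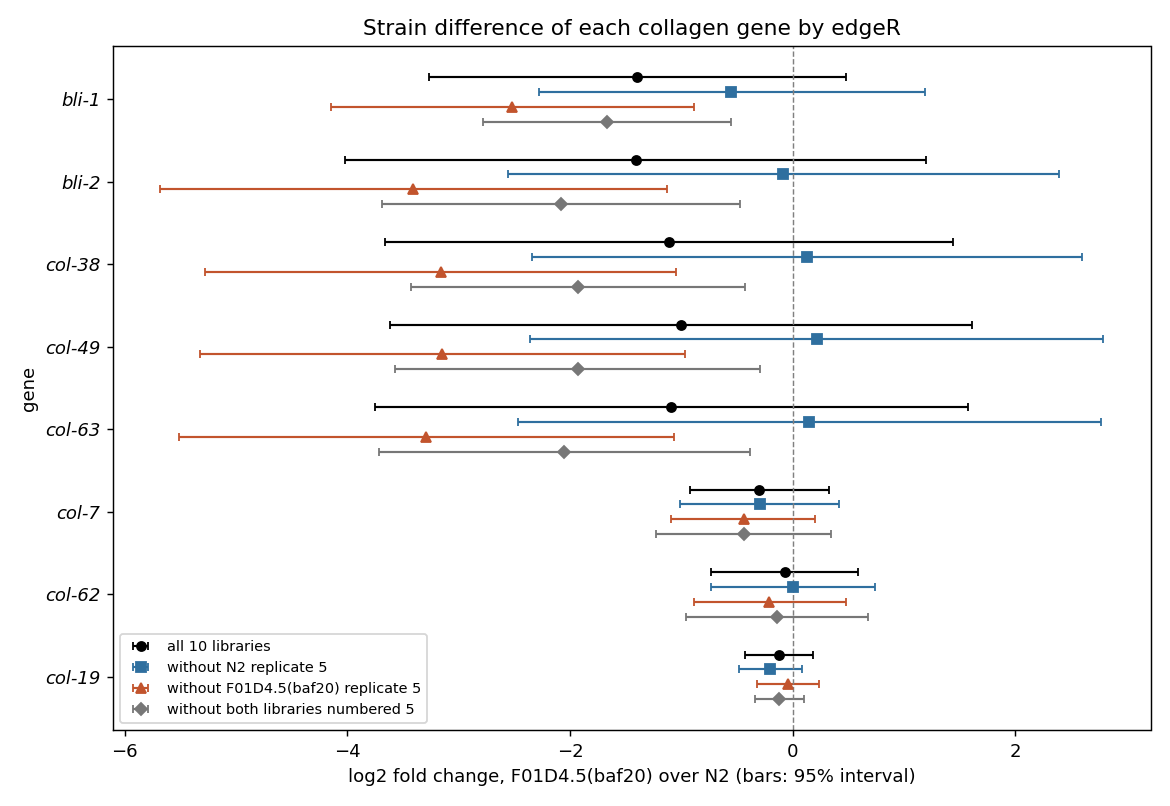
Log2 fold change of each gene, F01D4.5(baf20) over N2, from edgeR, with its 95% interval (not adjusted for the number of genes), for all 10 libraries (black), without N2 replicate 5 (blue), without F01D4.5(baf20) replicate 5 (orange) and without both (grey). For the upper 5 genes the estimate lies between −0.55 and 0.22 without N2 replicate 5 and at −2.52 or below without F01D4.5(baf20) replicate 5, while the 3 lower genes stay between −0.44 and 0.00.

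Compared by replicate number, bli-1 and bli-2 were lower in the F01D4.5(baf20) library at all 5 numbers. The ratio of F01D4.5(baf20) to N2 was 0.208 to 0.636 for bli-1 and 0.0763 to 0.720 for bli-2. col-38, col-49 and col-63 were lower in F01D4.5(baf20) at 4 numbers and higher at number 1, where the ratio was 1.11, 1.96 and 1.24. col-19 was lower in F01D4.5(baf20) at 4 numbers, and col-7 and col-62 at 3. The deepest differences of the wide-ranging genes were all at number 3, where col-63 had 12.3 CPM in F01D4.5(baf20) and 150.1 CPM in N2. The labels do not say that a number marks a shared culture or day, so these ratios are a description.

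The balance of early against late genes was taken in each library as the mean log2 CPM of bli-1, bli-2 and col-38 minus that of col-19 and col-7. It was −6.54, −5.82, −6.49, −5.04 and −2.33 in F01D4.5(baf20) replicates 1 to 5, against −5.83, −4.46, −3.71, −3.98 and −1.27 in N2 replicates 1 to 5. The mean was −5.25 ± 1.74 in F01D4.5(baf20) and −3.85 ± 1.66 in N2 (SD, n = 5 each), so the strain means lay within 1 SD of each other. The SDs include the libraries numbered 5, and at each of the 5 replicate numbers the balance was lower in F01D4.5(baf20). In both strains the library numbered 5 had the highest balance. The late genes contributed little to this, as their mean log2 CPM lay between 9.48 and 9.68 in F01D4.5(baf20) and between 9.29 and 10.18 in N2. The early mean lay between 2.99 and 7.33 in F01D4.5(baf20) and between 3.46 and 8.39 in N2.

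Levels of different genes were compared as CPM per kilobase of transcript. col-19 came first in all 10 libraries, with 4568 ± 752 in F01D4.5(baf20) and 4979 ± 666 in N2. bli-1 came last in all 10, with 5.40 ± 6.62 in F01D4.5(baf20) and 14.2 ± 14.5 in N2 (SD, n = 5 each). The order between them depended on the library. col-62 stood at 173 to 367 CPM per kilobase in F01D4.5(baf20) and 125 to 388 in N2, and exceeded col-38 in the 8 libraries numbered 1 to 4. In the libraries numbered 5 col-38 was the higher of the pair, at 589 in F01D4.5(baf20) and 1039 in N2. col-7 took the 3rd place in F01D4.5(baf20) replicates 1 to 4 and the 7th place in both libraries numbered 5. Ordered by strain mean, only the step from col-19 to the next gene separated the ranges of the libraries. All other neighbours in the order overlapped in both strains.

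Other cuticle genes gave a setting for these profiles. Furrow collagens pattern the grooves of the cuticle, and 5 of the 6 listed genes were tested. None passed the test, all 5 were negative, and their median log2 fold change was −1.33. That median was −0.294 without N2 replicate 5, −2.298 without F01D4.5(baf20) replicate 5 and −1.259 with both left out. dpy-2, the highest of them in CPM, averaged 7.62 ± 4.61 CPM in F01D4.5(baf20) and 16.6 ± 16.7 CPM in N2 (log2 fold change −1.12, SE 0.621). dpy-8, dpy-7 and dpy-9 had log2 fold changes of −1.33, −1.72 and −0.99 (SE 0.815, 1.01 and 0.715). Of the 12 annular and body shape collagens 10 were tested and 0 passed, all 10 were negative, and the median was −1.12. It was −0.058 without N2 replicate 5, −3.182 without F01D4.5(baf20) replicate 5 and −2.096 with both left out. bli-6 had 32.3 to 83.4 CPM in F01D4.5(baf20) replicates 1 to 4 and 549 CPM in replicate 5, against 59.1 to 163 CPM in N2 replicates 1 to 4 and 833 CPM in replicate 5. The next highest in CPM, dpy-5, dpy-13 and dpy-4, had log2 fold changes of −1.37, −0.98 and −0.96 (SE 1.14, 1.15 and 1.15). The high level in libraries numbered 5 was therefore shared by collagens outside the 8.

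The listed genes of collagen processing and crosslinking, not all of them enzymes, ranged less. Their mean log2 CPM was also highest in the library numbered 5 of each strain. Minus its mean over the 10 libraries, it was 0.4 in F01D4.5(baf20) replicate 5 and 0.71 in N2 replicate 5. None of the 9 tested of 12 passed, 7 were negative and 2 positive, and the median log2 fold change was −0.14. mlt-7, a peroxidase needed for cuticle crosslinking, had 252 CPM in F01D4.5(baf20) replicate 5, where replicates 1 to 4 had 72.8 to 157 CPM, and 242 CPM in N2 replicate 5, where replicates 1 to 4 had 70.7 to 159 CPM. bli-3, the dual oxidase, averaged 73.5 ± 9.48 CPM in F01D4.5(baf20) and 69.4 ± 6.88 CPM in N2. The prolyl 4-hydroxylase subunits phy-2 and dpy-18 stood at −0.50 (SE 0.362) and −0.61 (SE 0.453) on the log2 fold change scale. Of the 10 moulting and apical matrix genes 7 were tested and 0 passed, with 5 negative, 2 positive and a median of −0.17. The highest in CPM were lrp-1, qua-1, nekl-2 and noah-2, with log2 fold changes of 0.16, −1.0, −0.17 and −0.88.

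The 17 epidermal and heterochronic regulators include genes that time the larval stages or the moults. Of these 17, 13 were tested and 0 passed, with 9 negative, 4 positive and a median of −0.17. The myelin regulatory factor homologue myrf-1 had 72.1 CPM in F01D4.5(baf20) replicate 5, where replicates 1 to 4 had 23.6 to 32.1 CPM, and 69.1 CPM in N2 replicate 5, where replicates 1 to 4 had 26.8 to 39.2 CPM. mab-10, nhr-23 and blmp-1 had log2 fold changes of −0.32, −0.10 and 0.14 (SE 0.134, 0.199 and 0.256). lin-29, which activates col-19 in the adult epidermis, was at 1.02 ± 0.652 CPM in F01D4.5(baf20) and 1.23 ± 0.209 CPM in N2. The naming rule does not cover it, and it was added with its values known. It has 3 transcript rows in the tables. Several genes of these lists with more than 1 such row, among them dpy-10, sqt-1, pdi-2, bli-4 and mlt-11, were at 0 CPM in every library. Each of the 8 collagen genes has a single row.

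Yolk and oocyte genes were read in the same libraries. The yolk protein genes, 5 tested of 6, had 2 negative and 3 positive log2 fold changes and a median of 0.06. vit-5, vit-1, vit-2 and vit-4, the highest in CPM, had 0.08, 0.14, −0.07 and −0.01. The oocyte and eggshell genes, 9 tested of 10, had 1 negative and 8 positive log2 fold changes and a median of 0.22, and 0 genes of either list passed. cbd-1, perm-4, puf-5 and perm-2 were the highest in CPM, with log2 fold changes of 0.30, 0.08, 0.22 and −0.09. The summed level of the oocyte list was lowest in the libraries numbered 5. It was 4658 CPM in F01D4.5(baf20) replicate 5, where replicates 1 to 4 had 6279 to 9071 CPM, and 3553 CPM in N2 replicate 5, where replicates 1 to 4 had 6005 to 7919 CPM. F01D4.5(baf20) replicate 3 and N2 replicate 1, lowest of their strains in col-38, col-49 and col-63, were highest of their strains in this sum. Summed yolk levels were 13161 to 22282 CPM in F01D4.5(baf20) and 11314 to 22251 CPM in N2, highest in the same 2 libraries.

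Markers of whole tissues were compared likewise. The 5 epidermal markers, of which dpy-7, rol-6 and col-10 are themselves collagens, summed to 317 CPM in F01D4.5(baf20) replicate 5 and to 47.0 to 74.9 CPM in replicates 1 to 4, against 445 CPM in N2 replicate 5 and 27.8 to 110.3 CPM in replicates 1 to 4. The epidermal transcription factor elt-3 had 8.36 CPM in F01D4.5(baf20) replicate 5, where the others had 5.83 to 7.26 CPM. In N2 it had 7.27 CPM in replicate 5, where the others had 4.99 to 10.7 CPM. Summed germline markers were lowest in the libraries numbered 5, at 1243 CPM in F01D4.5(baf20) and 999 CPM in N2, where the other libraries had 1509 to 1682 CPM in F01D4.5(baf20) and 1466 to 1699 CPM in N2. Of the 4 intestinal markers ges-1, elt-2 and ifb-2 were likewise highest in the library numbered 5 of each strain, and vit-2 was so in F01D4.5(baf20). ifb-2 was low, at 0.791 CPM in F01D4.5(baf20) replicate 5 and 1.35 CPM in N2 replicate 5. The esterase gene ges-1 had 167.7 CPM in F01D4.5(baf20) replicate 5, where the others had 35.8 to 43.4 CPM, and 176.1 CPM in N2 replicate 5, where the others had 43.8 to 71.7 CPM. The intestinal transcription factor elt-2 had 82.0 CPM in F01D4.5(baf20) replicate 5, where the others had 31.5 to 41.6 CPM, and 79.5 CPM in N2 replicate 5, where the others had 36.8 to 56.1 CPM. The mean log2 CPM of the tested intestinal markers, minus its mean over the 10 libraries, was 0.85 in F01D4.5(baf20) replicate 5 and 0.76 in N2 replicate 5. For the epidermal markers it was 1.57 in F01D4.5(baf20) and 2.30 in N2. The seam, muscle, pharynx, neuron and sperm lists had 1, 3, 2, 2 and 4 tested genes. Their mean log2 CPM, centred likewise, lay between −0.48 and 0.29 in F01D4.5(baf20) replicate 5 and between −0.23 and 0.34 in N2 replicate 5. Of the 2 neuron genes, ric-4 was highest in the library numbered 5 of each strain and snb-1 was not. The high values in the libraries numbered 5 were thus not limited to cuticle genes. The part of the yolk, oocyte, germline, intestinal and epidermal cells in the collagen levels was not tested.

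**Figure D4:**
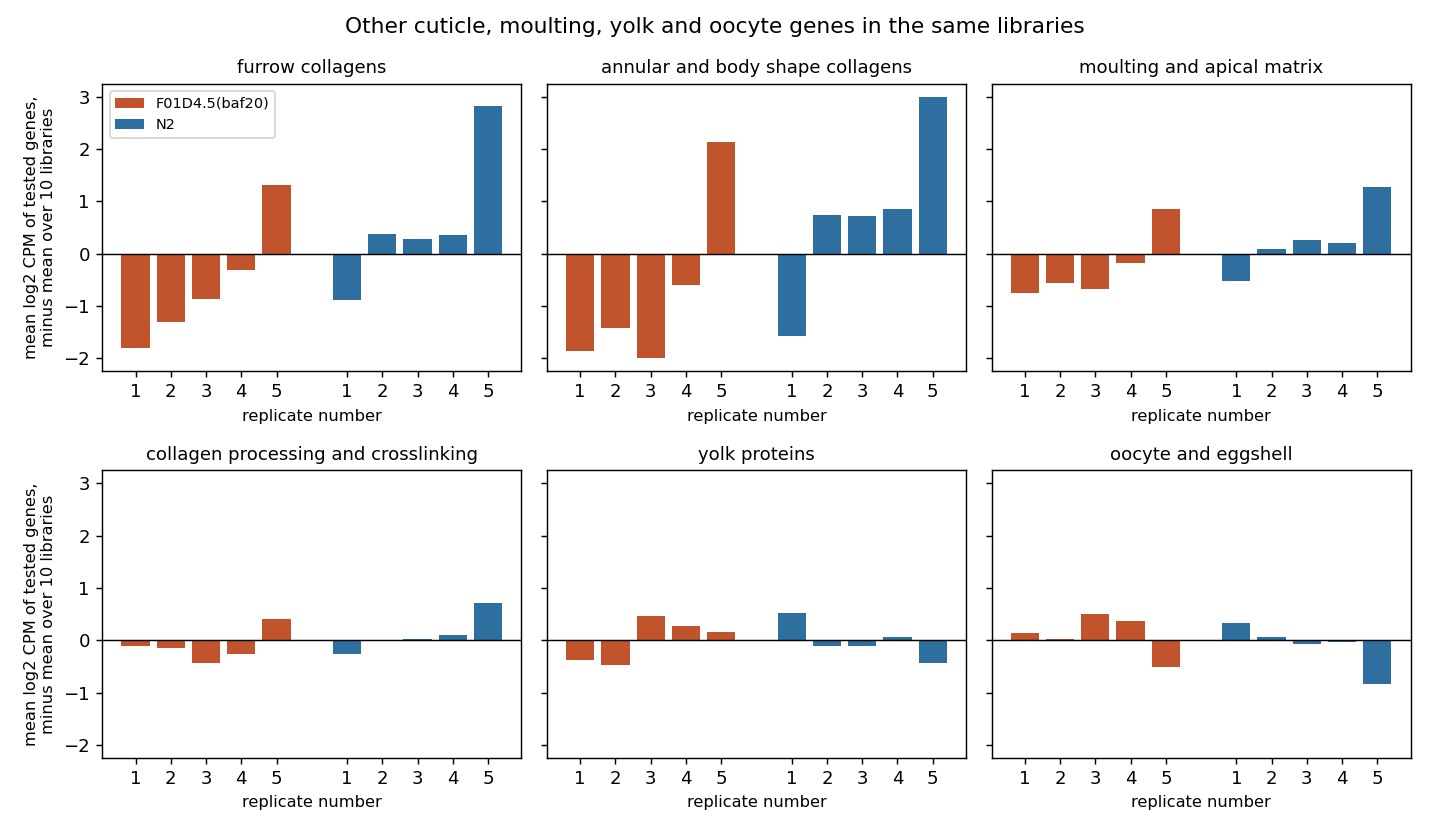
Mean log2 CPM of the tested genes of 6 lists in each library, minus the mean over the 10 libraries, F01D4.5(baf20) in orange left of N2 in blue, by replicate number. Both collagen lists, the moulting list and the collagen processing and crosslinking list are highest in the libraries numbered 5 of each strain. The oocyte and eggshell list is lowest in those libraries.

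For bli-1 as an early gene and col-19 as a late gene, the 5 tested genes with the most similar centred profile were listed. The nearest to bli-1 were Y102A11A.5 at a root mean square difference of 0.19, sups-1 at 0.26, and qua-1, dpy-8 and R07E3.6 at 0.27 each. qua-1 encodes a hedgehog-related protein needed for moulting, and dpy-8 a furrow collagen. Over the 8 libraries numbered 1 to 4, 2 of these 5 (Y102A11A.5 and R07E3.6) were again among the nearest 5. The nearest to col-19 were F52C6.2 at 0.05 and nifk-1, F26E4.4, gtf-2F2 and mog-3 at 0.06 each, and over the 8 libraries 1 of them (F52C6.2) was again among the nearest 5. For a gene as level as col-19, likeness says mainly that these genes are level too.

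In the genome col-7 and col-62 are neighbours. They lie on opposite strands with their ends facing each other and 529 bases between them. The other 6 genes have no member of the group as their nearest coding neighbour. bli-1, bli-2 and col-19 each lie within the bounds of a gene on the opposite strand, dph-2, zyg-1 and hrg-11.4. Only dph-2 shares exonic bases with the collagen gene, 7 in all. The sources used here do not give the strand setting with which reads were counted. Over the 10 libraries dph-2 held 4001 counts, zyg-1 held 6 and hrg-11.4 held 7479, and reads of each pair could be mixed only where annotated exons overlap or where introns were counted. Reads shared with other collagen genes of similar sequence were not separated.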

How the data were processed

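Per the labels' protocols, total RNA was prepared with the Illumina TruSeq Stranded mRNA kit. Named without versions in the submitters' processing notes are CASAVA, HISAT2, HTSeq and DESeq2, with the builds ce10 and ce11. The authors deposited whole-number counts, not normalized, in 57827 rows per library. Of these, 57515 rows (99.78% of counts) matched the Ensembl annotation of WBcel235 or RefSeq symbols and were summed per gene. Genes were kept by filterByExpr (minimum count 10, minimum total 15) and tested with edgeR 4.0.16 in R 4.3.3 (TMM, robust quasi-likelihood, strain as the only term, two-sided, Benjamini-Hochberg over 12335 genes, threshold 0.05), after a check on simulated counts. Log2 CPM used a prior count of 2. Standard errors were taken from the fold change and its F statistic. Floors cover counting error only. All pairs within a strain differed by more than counting error (chi-square per degree of freedom from 2.20, for F01D4.5(baf20) replicates 1 and 2, to 132).

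The members, lists and tests were chosen with earlier results of these data known. The rule named the 8 genes, F01D4.5, the 5 nearest genes to bli-1 and col-19, and the passing genes and the 4 highest in CPM of each list. Alternatives were DESeq2 1.42.0, other scalings and filters, the replicate number as a block, libraries left out or summed, and rows as deposited. Marker lists of 8 tissues were read in each library. Protein and promoter sequences were not used here.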

Additional observations from a re-analysis of the deposited data

Results flagged for a closer look

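In CPM, the library numbered 5 lay far from the other 4 of its strain for 5 genes. Its gap to the nearest library, as a share of the strain's whole range, was above 0.710, Dixon's critical value at the 95% level. bli-1 stood at 51.5 CPM in F01D4.5(baf20) replicate 5 and at 118.7 CPM in N2 replicate 5 (shares of 0.840 and 0.796). bli-2 stood at 146 and 329 CPM in the same 2 libraries (0.913 and 0.847). col-38 stood at 545 CPM in F01D4.5(baf20) replicate 5 and 962 CPM in N2 replicate 5 (0.937 and 0.846), and col-49 at 348 CPM in F01D4.5(baf20) and 557 CPM in N2 (0.942 and 0.820). col-63 stood at 523 CPM in F01D4.5(baf20) replicate 5 and 890.4 CPM in N2 replicate 5 (0.936 and 0.828). Of the 18 sets of 5 libraries examined, for the 8 genes and F01D4.5 in each strain, 10 were past the critical value. Chance marks about 1 in 20 such sets only where values are normally distributed, which was not tested for these CPM. The shares were taken on CPM. Taken on log2 CPM, the share falls below 0.710 in all 10 sets. The one nearest to it was col-38 in F01D4.5(baf20), with 9.09 in replicate 5 and 4.12 to 5.67 in the others. The flag thus depends on the CPM scale. The 5 genes share 1 profile, bli-1 the least closely, so the 10 are not independent.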

How the results depend on the processing

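No collagen gene of the 8 passed the test under any of the 20 alternatives run for each (adjusted p 0.0722 to 1.00). Of these 160 values 153 were negative. The 7 others came from left-out libraries: without N2 replicate 5 the log2 fold change was 0.127 for col-38, 0.215 for col-49, 0.149 for col-63 and 0.002 for col-62, and col-62 was at 0.077 without N2 replicate 2, 0.055 without F01D4.5(baf20) replicate 3 and 0.008 without F01D4.5(baf20) replicate 4. With each library left out in turn, col-38 ranged from −3.162 to 0.127, col-49 from −3.147 to 0.215, col-63 from −3.29 to 0.149 and col-62 from −0.254 to 0.077. The median of the 8 genes ranged from −2.831 without F01D4.5(baf20) replicate 5 to −0.042 without N2 replicate 5, beside −1.05 with all libraries. The count of changed genes over the whole table was 8, but 33 by DESeq2, 5 with no filter on low counts, 18 with both libraries numbered 5 left out, 2 with F01D4.5(baf20) replicates 1 and 2 summed, and 2 to 13 with single libraries left out. F01D4.5 lost its call in 9 of 19 alternatives, among them each single omission of replicates 1 to 4, with adjusted p from 2.83e-07 (DESeq2) to 0.132 and log2 fold changes of −1.877 to −1.614. The cause was not tested.

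Same-numbered libraries deviated together in 3 of 5 pairs by more than 0.1 (correlations from −0.131 to 0.822). Some libraries of unlike number agreed more. N2 replicate 1 had 0.668 with F01D4.5(baf20) replicate 3 and 0.512 with replicate 4, where the pairs numbered 3 and 4 had 0.0021 and −0.131. The labels do not say that the numbers pair the samples, and they were not taken to do so. With the replicate block 6 genes passed, none of them of the 8, whose median log2 fold change was then −1.48. bli-1 came closest, at −1.50 (adjusted p = 0.0722, edgeR). Unadjusted p was under 0.05 for 4 of the 8 (bli-1, bli-2, col-38 and col-63), as for 1406 of the 12335 tested genes.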
